A study of Homo sapiens with 30 samples.

Results

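The 6 genes described here, BCL11A, MYB, ZBTB7A, LIN28B, IGF2BP1 and IGF2BP3, regulate whether a red cell precursor makes fetal or adult haemoglobin. They were chosen by name, and every peak within 10 kb of each gene's hg19 start was taken, together with the peaks of a 130 kb interval upstream of MYB at chr6:135370000-135500000. Of 587932 SEACR peaks in the series, 219 lay in the 6 windows, 190 of them in H3K27ac lists and 29 in H3K27me3 lists. The upstream interval held a further 31. Of 157073 MACS2 peaks, 58 lay in the 6 windows and 9 in the interval.

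BCL11A and ZBTB7A (also called LRF) are zinc finger repressors that bind the gamma-globin promoters and silence them in adult red cells. They recruit the NuRD complex of chromatin remodelling and deacetylase subunits. MYB, a transcription factor of erythroid progenitors, acts further upstream, and common variants in the interval between HBS1L and MYB are associated with fetal haemoglobin levels. LIN28B, an RNA-binding protein of fetal life, and the RNA-binding proteins IGF2BP1 and IGF2BP3 belong to the fetal program, and LIN28B and IGF2BP1 lower BCL11A when expressed in adult erythroid cells. K562, an established human chronic myeloid leukaemia line with erythroid features, makes embryonic and fetal globins.

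The data were 30 CUT&Tag libraries of K562 cells, each made from 500000 cells and each the only library of its condition. In CUT&Tag an antibody guides a transposase to a chromatin mark, and the sequenced inserts pile up where the mark is. H3K27ac, found at active promoters and enhancers, was profiled in 25 libraries with ab177178, ab4729 and Active Motif 39133 at 1/100 and Diagenode C15410196 at 1/50 or 1/100. H3K27me3, the mark left by Polycomb repressive complexes, was profiled in 5 libraries with a single antibody, CST9733 at 1/100, so mark and antibody cannot be told apart. At 15 PCR cycles with SDS extraction there were 6 untreated libraries and 4 H3K27ac libraries with trichostatin A (TSA), a histone deacetylase inhibitor, at a dose the labels do not state. The other 20 libraries were untreated, were amplified for 11 or 13 cycles after SDS or column extraction, and had been downsampled before peaks were called. They comprised 16 H3K27ac libraries, with Diagenode at 1/50, and 4 H3K27me3 libraries. No library measured RNA, and exon or intron context in hg19 was not analysed here.

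The H3K27ac lists held 3024 to 22808 peaks on chromosomes 1 to 22 and X, and the H3K27me3 lists 65283 to 106997. No label or file header states the read depth behind them. One library stood apart. Among 4838 windows of 20 kb that held a peak in at least 13 of the 25 H3K27ac lists, the H3K27me3 library from column extraction at 11 cycles had a peak in 32.3%, and the other 4 H3K27me3 libraries in 8.08% to 14.5%. Peaks within 10 kb of marker genes were also checked. The erythroid factor gene GATA1 had H3K27ac in 24 of 25 lists and KLF1 in 25. The T cell gene CD3E had it in 0.

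Where several starts were listed, the most upstream promoter of a gene is printed below, because the starts of these 4 genes lay in or beside the peaks described next. Each run is the 250 bases before a RefSeq start in GRCh38.p14, 5′ to 3′, with CG dinucleotides in capitals, and was not placed by coordinate on the hg19 peaks.
BCL11A (chr2:60553925-60554174, minus strand): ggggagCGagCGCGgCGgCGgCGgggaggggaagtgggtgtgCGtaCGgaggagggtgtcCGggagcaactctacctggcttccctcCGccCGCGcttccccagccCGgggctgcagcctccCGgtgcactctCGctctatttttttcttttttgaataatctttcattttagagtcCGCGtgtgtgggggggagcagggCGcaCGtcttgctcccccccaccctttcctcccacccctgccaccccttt
MYB (chr6:135181058-135181307, plus strand): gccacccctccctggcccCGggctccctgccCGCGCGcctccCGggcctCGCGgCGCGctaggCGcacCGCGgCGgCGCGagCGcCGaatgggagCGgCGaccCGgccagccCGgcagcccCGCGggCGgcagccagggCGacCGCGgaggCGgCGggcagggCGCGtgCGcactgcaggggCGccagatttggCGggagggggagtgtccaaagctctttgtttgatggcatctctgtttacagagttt
ZBTB7A (chr19:4066900-4067149, minus strand): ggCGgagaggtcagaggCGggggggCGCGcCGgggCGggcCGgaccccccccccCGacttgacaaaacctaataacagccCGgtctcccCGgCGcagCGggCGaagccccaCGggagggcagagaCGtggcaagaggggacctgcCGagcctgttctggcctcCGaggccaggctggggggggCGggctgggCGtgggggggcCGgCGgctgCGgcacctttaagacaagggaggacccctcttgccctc
IGF2BP3 (chr7:23470492-23470741, minus strand): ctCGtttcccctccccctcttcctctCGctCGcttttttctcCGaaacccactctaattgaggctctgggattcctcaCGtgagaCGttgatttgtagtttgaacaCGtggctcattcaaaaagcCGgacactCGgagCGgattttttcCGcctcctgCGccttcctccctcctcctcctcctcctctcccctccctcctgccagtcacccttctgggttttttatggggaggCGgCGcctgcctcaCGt
The 4 runs differed in CG content. MYB had 34 CG dinucleotides and a GC content of 75.6%, ZBTB7A 22 and 74.4%, BCL11A 19 and 64.8%, and IGF2BP3 15 and 56.8%. The median of the 35116 promoters in the table was 11 CG dinucleotides and 58% GC. The GATA-type motif GATAA, searched on both strands, was in none of the 4 runs and in 20.4% of all promoters of this length. The motif CACCC, bound by KLF-type factors, occurred 5 times in the BCL11A run, once in those of MYB and IGF2BP3 and not in that of ZBTB7A; 54.7% of all promoters held it. The motif CCAAT was in none of the 4 and in 32% of all promoters. These counts depend on the start chosen. The other listed ZBTB7A run held CCAAT 1 time and CACCC 3 times, and CCAAT was in some but not all of the other BCL11A runs. Those other BCL11A runs held CACCC 0 to 4 times, fewer than the printed run. The nearest of them, chr2:60553655-60553904, held CACCC 0 times and CCAAT 2 times. LIN28B has 2 listed starts far apart and neither promoter is printed, and IGF2BP1 is named only.

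BCL11A was the one gene of the 6 with H3K27me3 and no H3K27ac. Its window, around the start at chr2:60780633, held no peak in any of the 25 H3K27ac lists and 4 to 7 peaks in each of the 5 H3K27me3 lists. The covered part of the window was 39.4% at 15 cycles, 19.2% with SDS and 20.1% with column extraction at 11 cycles, and 24.9% with SDS and 16% with column extraction at 13 cycles. The 15-cycle library was highest. The labels name downsampling only for the lists at 11 and 13 cycles, cycle number differs too, and the cause of the difference was not tested. H3K27me3 peaks flanked the start: all 5 lists had peaks between 2.8 and 0.2 kb upstream and between 1.4 and 4.7 kb into the gene. Peaks between 6.9 and 8.9 kb into the gene were found in 3 lists, and only the SDS library at 11 cycles had a peak over the start itself. The strongest was chr2:60776784-60778744, 1961 bp wide, at the 95th percentile of total signal in the column library at 11 cycles. Within-list percentile here is the share of a list's peaks with no greater total signal. The strongest peak of the other 4 libraries reached percentile 72.4 to 93.9. The nearest H3K27ac peak to the BCL11A start was 76.4 kb away in the closest list and 327 kb in the median list.

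A window covered like that of BCL11A was not rare. Of 151766 windows of 20 kb that tile the genome without regard to genes, 9.68% had a peak in all 5 H3K27me3 lists and 6.76% also had none in any H3K27ac list. At 15 cycles MACS2 called 4 H3K27me3 peaks over 45.2% of the BCL11A window and none in its 5 H3K27ac lists.

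**Figure D1:**
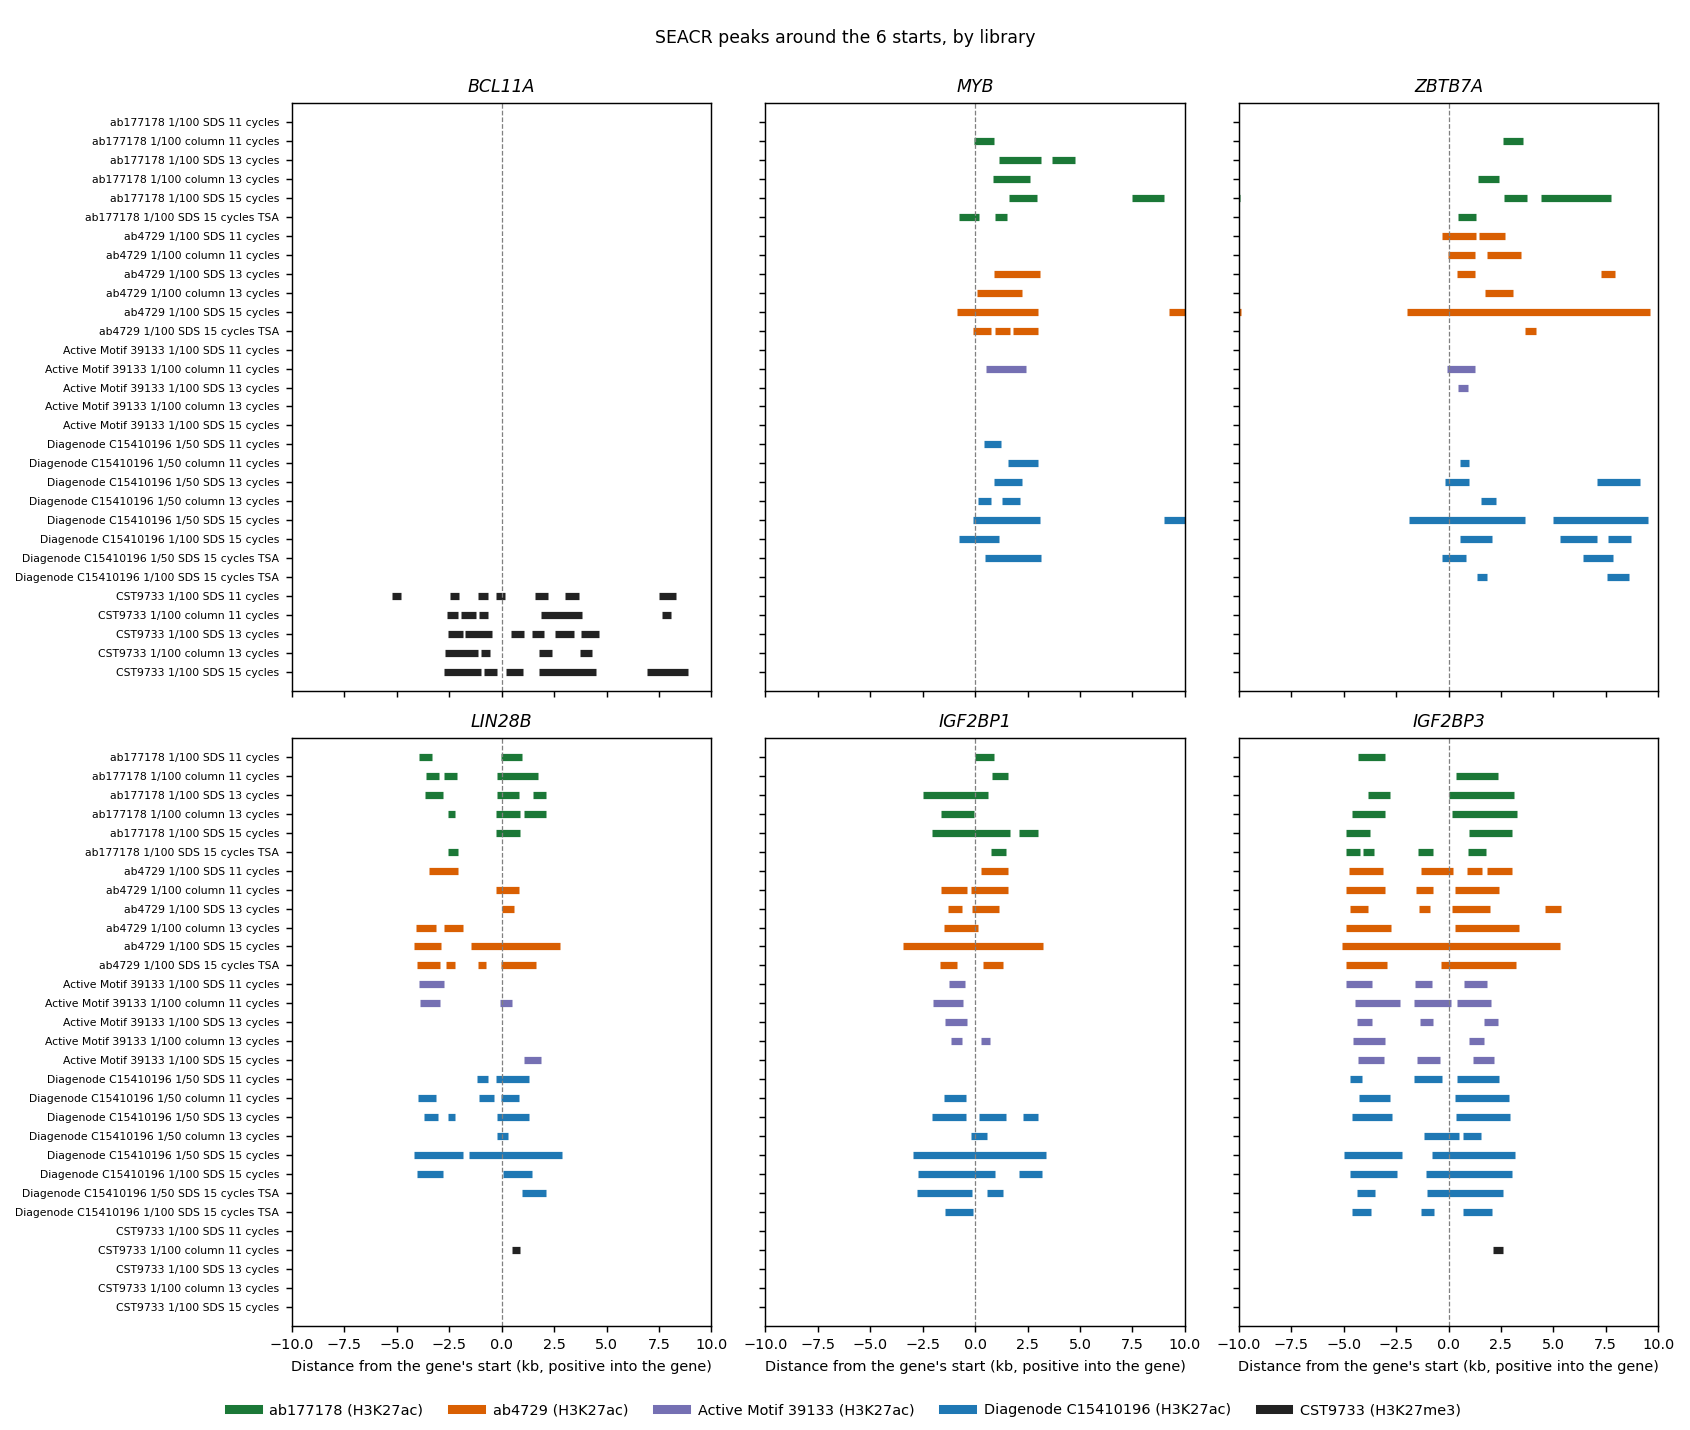
SEACR peaks within 10 kb of each start (x axis, kb, positive into the gene) in all 30 libraries (1 row each), coloured by antibody. BCL11A has only H3K27me3 peaks, on both sides of its start, while the other 5 genes have H3K27ac peaks in 17 to 25 of 25 lists and H3K27me3 in 1 library at most.

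The other 5 genes carried H3K27ac in 17 to 25 of the 25 lists. In the genome-wide tiling, 16.8% of windows had a peak in at least 1 of the 25 lists, 3.19% in at least 13 and 0.271% in all 25. These windows were not centred on gene starts, whereas those of the 6 genes were.

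IGF2BP3, which binds and stabilises mRNAs in fetal and cancer cells, had H3K27ac in the most lists. Its window, around chr7:23509995, had a peak in 25 of 25. The covered part was 6.46% at the lowest, 20.5% at the median and 51.8% at the highest, the last in the untreated ab4729 library at 15 cycles. There a single peak, chr7:23504684-23515052, was 10369 bp wide and stood at percentile 98.7. Peaks formed 2 blocks. One lay at 1.2 to 1.5 kb into the gene, covered in 23 lists, and the other between 5.5 and 2 kb upstream, with a peak in 23 lists. Only 8 lists covered the start itself. The median percentile of the strongest peak was 91.2 over the 25 lists, so it was among the stronger peaks of most lists. H3K27me3 was found in 1 list of 5, the column library at 11 cycles that stood apart, as a peak of 476 bp at percentile 16.8.

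LIN28B, which blocks maturation of a family of developmental microRNAs, had H3K27ac in 22 of 25 lists around chr6:105404923. Coverage was 0% at the lowest, 7.5% at the median and 33.7% at the highest, in the untreated Diagenode library at 1/50 and 15 cycles. The strongest peak, chr6:105403369-105407787, belonged to that library, covered the start and stood at percentile 92.7. The start itself was covered in 14 lists, more than at any of the other genes, and a second block between 4.5 and 1.8 kb upstream had a peak in 15 lists. The lists without a peak were those of Active Motif at 13 cycles with either extraction and of Diagenode at 1/100 with TSA. Again the column library at 11 cycles was the only H3K27me3 list with a peak, of 350 bp at percentile 28.3, 514 to 863 bp into the gene.

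IGF2BP1, the paralogue of IGF2BP3 also an mRNA-binding protein, had H3K27ac in 23 of 25 lists around chr17:47074774. Coverage was 0% at the lowest, 7.16% at the median and 33.3% at the highest, in the untreated ab4729 library at 15 cycles. The peak there, chr17:47071349-47078003, spanned the start over 6655 bp at percentile 96.3. The most shared position was 1.1 to 0.9 kb upstream of the start, in 18 lists. The untreated Active Motif library at 15 cycles and the SDS Diagenode library at 11 cycles had none. No H3K27me3 list had a peak.

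ZBTB7A had H3K27ac in 19 of 25 lists around chr19:4066816 and the widest range of the 6. Coverage was 0% at the lowest, 4.96% at the median and 58.4% at the highest, again in the untreated ab4729 library at 15 cycles. In that library a single peak, chr19:4057220-4068801, ran over 11582 bp from 1.99 kb upstream to 9.6 kb into the gene, at percentile 98.5. The untreated Diagenode library at 1/50 came next with 50.3%. All 16 downsampled lists lay at 15.9% or below, below the untreated 15-cycle libraries of ab177178, ab4729 and Diagenode. The strongest peak reached a median percentile of 48 over the lists that had one. No H3K27me3 list had a peak.

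MYB had H3K27ac in 17 of 25 lists around chr6:135502453, the fewest of the 5. Coverage was 0% at the lowest, 7.45% at the median and 23.1% at the highest, in the untreated ab4729 library at 15 cycles. Peaks lay mainly just inside the gene: 13 lists covered 1.9 to 2.1 kb past the start, and 6 covered the start. The strongest, chr6:135503332-135505562, was 2231 bp wide at percentile 94.2 in the ab4729 SDS library at 13 cycles. The 8 lists without a peak included 4 of the 5 Active Motif lists. No H3K27me3 list had a peak, and the nearest was 140 kb or more away.

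The interval upstream of MYB held 1 constant region and a few scattered ones. The constant region, chr6:135374173-135378576, 128 to 124 kb before the MYB start, had H3K27ac in all 25 lists. Its peaks were 602 to 3493 bp wide, with a median percentile of 78.6. In the RefSeq GRCh38.p14 table the start of HBS1L, the neighbouring gene that reads in the opposite direction, lies 126 kb before that of MYB. A second region, chr6:135467139-135468114, 35.3 to 34.3 kb before the start, was found only in 3 ab177178 lists, both column lists and the SDS list at 13 cycles, at percentiles of 16.8 to 55.6. A neighbouring peak, chr6:135468291-135470598, appeared in the untreated ab4729 list at 15 cycles at percentile 6.99, and another, chr6:135385682-135386449, only in the ab4729 TSA list. The rest of the interval had no SEACR peak, and no H3K27me3 list had a peak anywhere in it.

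**Figure D2:**
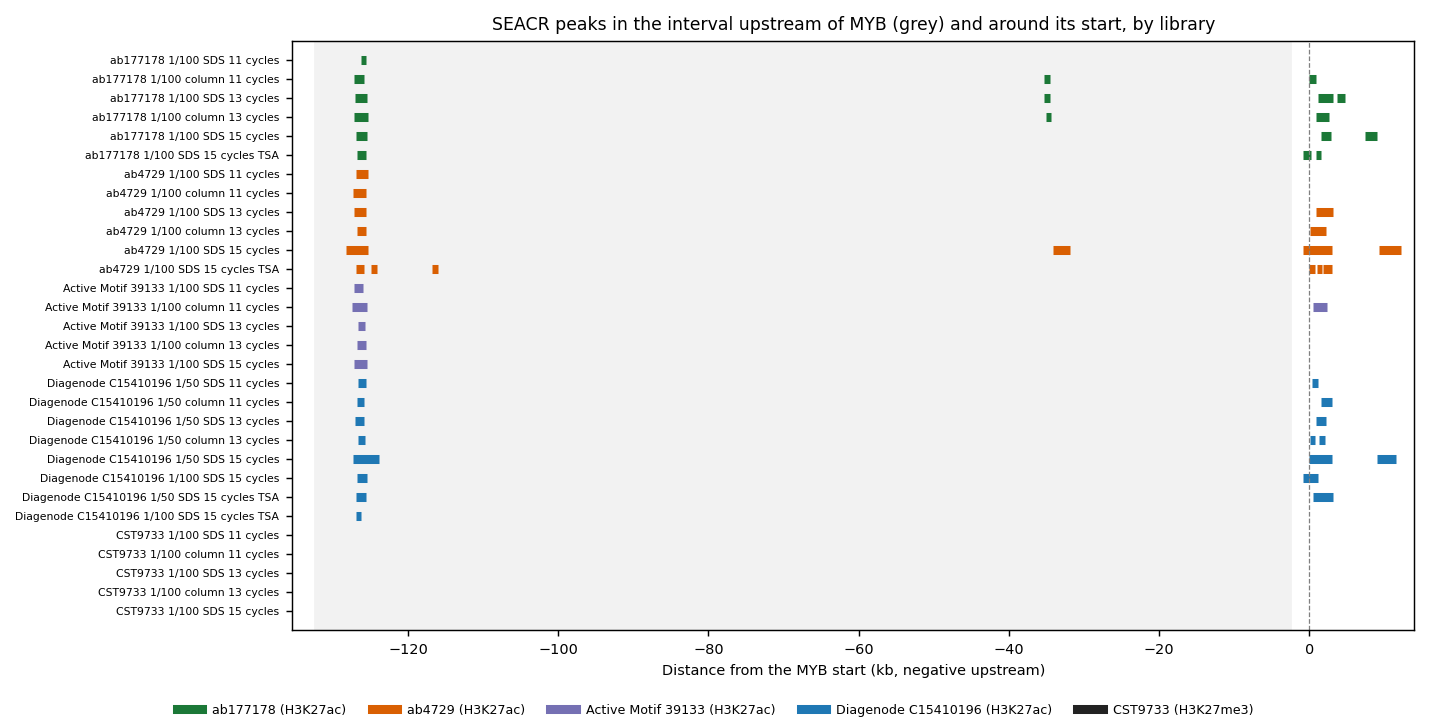
SEACR peaks by distance from the MYB start (x axis, kb, negative upstream) in all 30 libraries (rows), coloured by antibody, with the upstream interval shaded. The region 128 to 124 kb upstream is present in all 25 H3K27ac lists, and the region near 35 kb upstream in 3 lists of ab177178.

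The difference between the marks was tested over the 20 downsampled libraries, 16 for H3K27ac and 4 for H3K27me3, with an exact two-sided permutation test of the covered part and Benjamini-Hochberg adjustment over 49294 windows. Of all windows, 3.22% were called higher in H3K27ac and 40.9% higher in H3K27me3. Of the 6 genes, 3 were called higher in H3K27ac, 1 higher in H3K27me3 and 2 neither. The median difference was 6.41 percentage points over the 6 genes and -1.4 over all windows. The tiling windows among these are not centred on gene starts, and the share for gene starts in general was not computed. The counts and medians therefore do not set the 6 genes apart from other genes. All SDs here are over libraries, each of its own condition. The test shuffled the 20 libraries freely and used neither their antibody nor their matched protocols. Libraries of 1 antibody are not independent, and all 4 of H3K27me3 share 1 antibody. The p-values therefore treat protocol variants of an antibody as separate libraries and do not measure a spread between H3K27me3 antibodies.

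BCL11A coverage was 20% ± 3.71 (SD, n = 4) in H3K27me3 and 0% (n = 16) in H3K27ac, with an adjusted p of 0.0007 by the exact permutation test. The groups did not overlap, but the share of all windows without overlap was not computed. The call was lost when every list was reduced to its 3761 strongest peaks (difference -2.45 points, adjusted p = 0.405 by exact permutation). IGF2BP3 coverage was 18.4% ± 6.55 (SD, n = 16) in H3K27ac and 0.595% ± 1.19 (SD, n = 4) in H3K27me3, with an adjusted p of 0.0007 by the same exact test. Here too the groups did not overlap, and without the column library at 11 cycles the difference was 18.4 points.

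LIN28B coverage was 7.87% ± 4.81 (SD, n = 16) against 0.437% ± 0.875 (SD, n = 4), adjusted p = 0.0165 by exact permutation. IGF2BP1 coverage was 7.45% ± 4.93 (SD, n = 16) against 0% (n = 4), adjusted p = 0.0226 by exact permutation. Neither call was firm. Both were lost when only the strongest 50% of each list was used (LIN28B adjusted p = 0.276, IGF2BP1 0.235, exact permutation) and at equal list size (0.244 and 0.214). The IGF2BP1 call was also lost without ab4729 (adjusted p = 0.0635, exact permutation) or without any 1 of the H3K27me3 libraries (0.05 to 0.0514), all by exact permutation. That of LIN28B was lost when only the presence of a peak was scored (adjusted p = 0.0569, exact permutation). MYB, at 5.38% ± 5.03 (SD, n = 16) against 0% (n = 4), and ZBTB7A, at 5.24% ± 5.48 (SD, n = 16) against 0% (n = 4), did not pass (adjusted p = 0.128 and 0.138, exact permutation). For both, some H3K27ac lists were at 0 like the H3K27me3 lists. The interval upstream of MYB, covered over 1.09% ± 0.442 (SD, n = 16) in H3K27ac and 0% (n = 4) in H3K27me3, was called with an adjusted p of 0.0007 by exact permutation. This call rests mainly on the region 128 to 124 kb before the MYB start, the only one found in all 25 H3K27ac lists. In GRCh38.p14 the HBS1L start is 126 kb before that of MYB. The call therefore does not describe the rest of the interval.

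**Figure D3:**
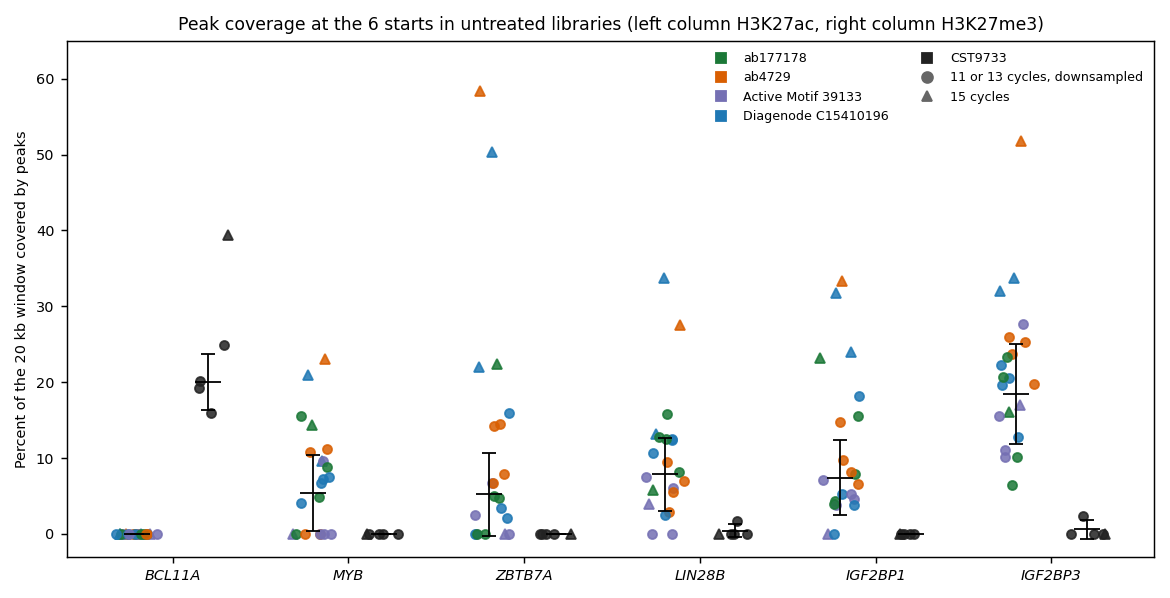
Percent of each 20 kb window covered by SEACR peaks (y axis) in the 26 untreated libraries, with H3K27ac in the left and H3K27me3 in the right column of each gene. Points are libraries coloured by antibody, and bars are the mean and SD of the downsampled libraries (circles). BCL11A is covered only in H3K27me3, and IGF2BP3 has the highest H3K27ac mean, 18.4%.

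The order of H3K27ac coverage over the 16 downsampled lists was IGF2BP3, LIN28B, IGF2BP1, MYB, ZBTB7A and BCL11A. IGF2BP3 exceeded LIN28B in 14 of 16 lists, by 10.6 ± 6.93 points (SD, n = 16). From LIN28B to ZBTB7A, neighbours differed by 0.146 to 2.06 points, less than the SD of their differences. BCL11A was lower than ZBTB7A in 11 lists and equal in the other 5, all at 0.

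Over all 25 H3K27ac lists, the pathway or member gene whose coverage ran most like that of MYB was GATA1 (Spearman rho 0.751), an activator of erythroid genes. ZBTB7A and IGF2BP1 were each other's nearest (0.78), IGF2BP3 was nearest to IGF2BP1 (0.686), and LIN28B to HDAC2 (0.669). These are descriptions over 25 lists that share libraries and list size. Coverage also correlated with the number of peaks in the list, with a rho of 0.372 for IGF2BP3 to 0.665 for LIN28B.

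Among 16 other genes of the pathway, 7 were called higher in H3K27ac, none higher in H3K27me3 and 9 neither, with a median difference of 4.71 points. Of all 49294 windows, 3.22% were called higher in H3K27ac and 40.9% higher in H3K27me3, but the tiling windows among them are not centred on gene starts. The share for gene starts in general was not computed, so the count does not set these genes apart from other genes. HIC2, a repressor of BCL11A transcription, had the largest difference, with coverage of 24.4% ± 8.71 (SD, n = 16) in H3K27ac. GATA1 was covered over 14.1% ± 6.85 (SD, n = 16) and KLF1, an activator of BCL11A and of adult globin, over 13.7% ± 4.51 (SD, n = 16). MTA2, a NuRD subunit, was covered over 10.1% ± 6.09 (SD, n = 16). Both erythroid activators, 2 of 8 corepressor genes, 2 of 3 other repressors and 1 of 3 oncofetal genes were called. The adjusted p of the 4 named genes was 0.0007 for HIC2 and KLF1, 0.00338 for GATA1 and 0.0132 for MTA2 by the exact permutation test.

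The 3 oncofetal genes, named here after their values were seen, differed. IGF2BP2, the third gene of its family, had H3K27ac in 22 of 25 lists and was called (adjusted p = 0.0156, exact permutation). LIN28A, the paralogue of LIN28B, had no H3K27ac peak in any list and an H3K27me3 peak in 1 of 5. HMGA2, a chromatin protein of fetal tissue, also had none in H3K27ac and had H3K27me3 in 3 of 5 lists, over at most 5.49% of its window. The difference for HMGA2 did not pass (adjusted p = 0.0565, exact permutation). Small H3K27me3 peaks at MTA2, NR2C2, HIC2 and IGF2BP2 all came from the column library at 11 cycles, as at LIN28B and IGF2BP3.

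The share of lists with a peak differed between antibodies, with the widest range at MYB and ZBTB7A. These counts pool untreated and TSA lists, and for Diagenode both dilutions, whereas Active Motif had no TSA list. At MYB, H3K27ac was found in 7 of 8 Diagenode, 5 of 6 ab177178, 4 of 6 ab4729 and 1 of 5 Active Motif lists. In untreated lists alone it was in 6 of 6, 4 of 5, 3 of 5 and 1 of 5, in the same order. At ZBTB7A it was in all 6 ab4729, 7 of 8 Diagenode, 4 of 6 ab177178 and 2 of 5 Active Motif lists. LIN28B was found in all 6 lists of ab177178 and of ab4729, 7 of 8 of Diagenode and 3 of 5 of Active Motif. The Diagenode list without it was a TSA list, and all 6 untreated Diagenode lists had it. IGF2BP1 was found in all 6 of both Abcam antibodies, 7 of 8 of Diagenode and 4 of 5 of Active Motif. The Active Motif lists were among the shortest, with 3024 to 7191 peaks, and the part of list length in these counts was not tested. IGF2BP3 and the region 128 to 124 kb before the MYB start, near the start of HBS1L, were in every Active Motif list, at median percentiles of 81.7 and 82.9.

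Strength within the list differed too. At LIN28B the strongest peak stood at a median percentile of 72.2 in the 4 downsampled ab177178 lists and 35.3 in those of ab4729. At ZBTB7A the median was 48.4 over the 2 Active Motif lists with a peak, 34.5 over 4 of ab4729, 32.9 over 2 of ab177178 and 16.3 over 3 of Diagenode. At IGF2BP3 the medians were 94.9 for ab177178, 94.7 for Diagenode, 87.7 for ab4729 and 85.1 for Active Motif. These values are given as a description, and their differences were not tested.

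**Figure D4:**
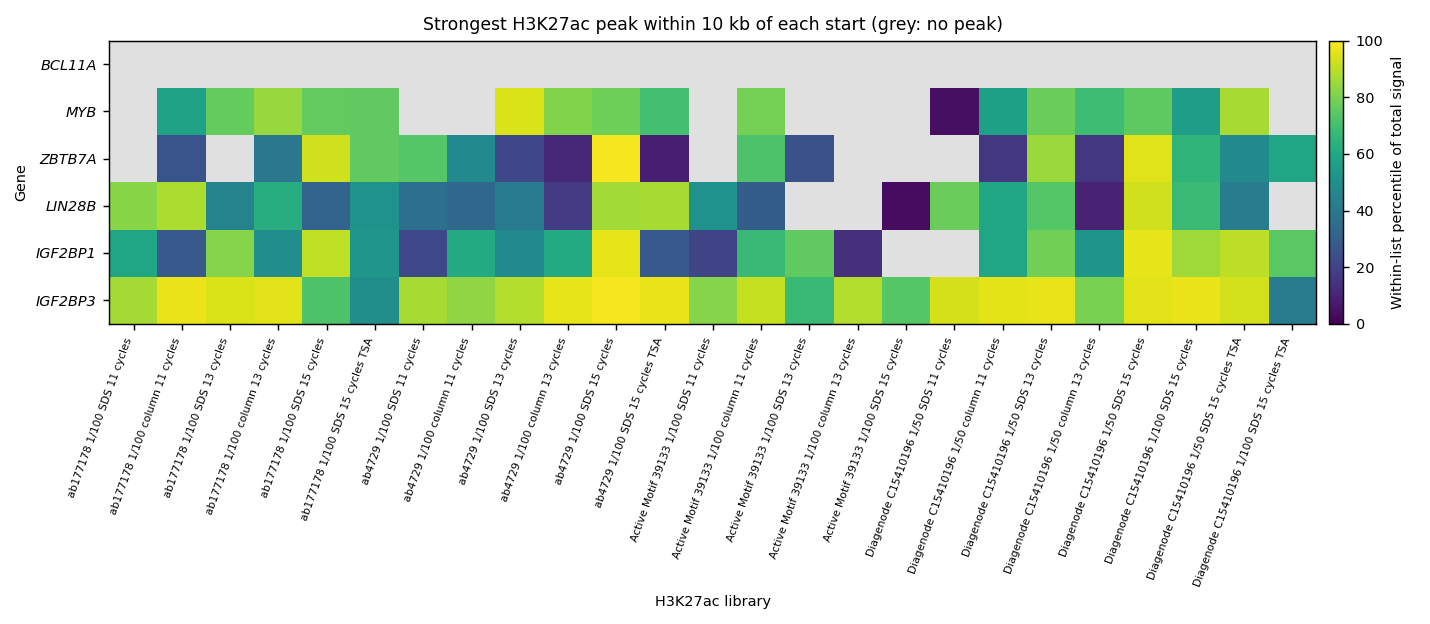
Within-list percentile of the strongest H3K27ac peak within 10 kb of each start (colour) for the 6 genes (rows) in the 25 H3K27ac libraries (columns), grey where the list has no peak. IGF2BP3 is filled in every column, with a median of 91.2, and BCL11A in none.

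The 4 TSA pairs compared treated and untreated libraries of 1 antibody and dilution at 15 cycles. H3K27ac coverage was lower with TSA in all 4 pairs at all 5 acetylated genes, and BCL11A stayed without an H3K27ac peak. ZBTB7A was covered over 22.4%, 58.4%, 22% and 50.3% in the untreated ab177178, ab4729, Diagenode 1/100 and Diagenode 1/50 libraries and over 4.31%, 2.59%, 7.76% and 12.6% with TSA. The untreated and TSA groups did not overlap there, but the share of all windows without overlap was not computed. In the ab4729 TSA list, 519 bp of the window were covered, by a peak at percentile 8.71, where the untreated list had the peak of 11582 bp. The mean difference was -31.5 ± 19.2 points (SD, 4 pairs).

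IGF2BP1 was covered over 23.2%, 33.3%, 24% and 31.7% untreated and 3.56%, 8.87%, 6.74% and 17.1% with TSA, in the same order, again without overlap. How many of all windows separate in this way was again not computed. MYB was covered over 14.4%, 23.1%, 9.64% and 20.9% untreated and 7.74%, 13.6%, 0% and 13.3% with TSA, and these groups overlap. At LIN28B the values were 5.74%, 27.6%, 13.2% and 33.7% untreated and 2.47%, 17.9%, 0% and 5.71% with TSA, which overlap. At IGF2BP3 they were 16.1%, 51.8%, 32% and 33.7% untreated and 13.6%, 27.7%, 14.6% and 22.4% with TSA, which also overlap. Mean differences were -19 ± 4.16, -8.37 ± 1.47, -13.5 ± 10.5 and -13.8 ± 9.17 points (SD, 4 pairs) for IGF2BP1, MYB, LIN28B and IGF2BP3.

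With 4 pairs the exact two-sided sign-flip test cannot reach 0.05, since at least 2 of the 16 sign assignments are as extreme. All 5 genes were at that smallest p, and 0% of 23000 windows passed after adjustment. Of the same 23000 windows, 14.7% were lower in all 4 pairs. Among 4624 tiling windows covered in all 4 untreated lists, as the 5 genes were, 72.9% were lower in all 4 pairs, a share that this choice of windows favours. The length covered by the whole list was also lower in every pair, at 23%, 58.4%, 48.3% and 25.5% of the untreated length for ab177178, ab4729, Diagenode 1/100 and Diagenode 1/50. ZBTB7A retained 19.3%, 4.44%, 35.3% and 25.1% of its untreated coverage, below the whole list in each pair, though barely with Diagenode 1/50. IGF2BP1 retained 15.4%, 26.7%, 28.1% and 54%, above the whole list only with Diagenode 1/50. The share of all windows below the whole list in each pair was not computed. IGF2BP3 retained 84.1%, 53.4%, 45.7% and 66.4%, above the whole list in 2 pairs and below it in 2. The ab4729 list had more peaks with TSA, 22808 against 13394. With the lists of each pair reduced to the same number of peaks, the mean differences were -29.4 points at ZBTB7A, -18.6 at IGF2BP1, -12.4 at IGF2BP3, -11 at LIN28B and -7.31 at MYB. Equal peak number does not equalise covered length, and the part of covered length in these differences was not tested.

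**Figure D5:**
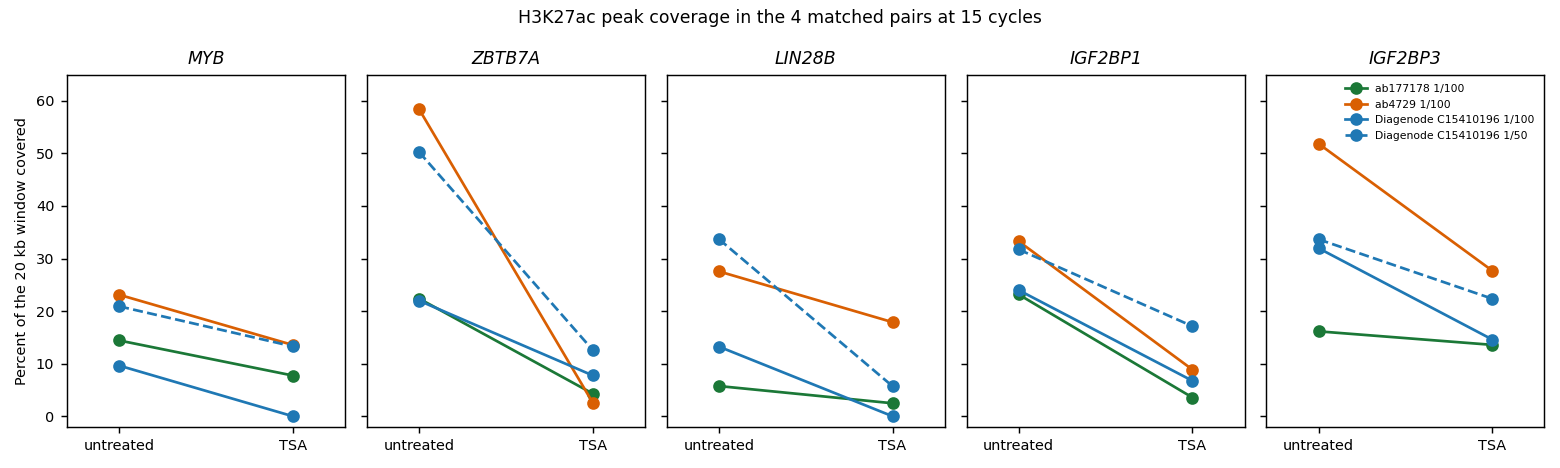
Percent of the 20 kb window covered by H3K27ac peaks (y axis) without and with TSA at the 5 acetylated genes; each line is 1 antibody and dilution. All lines slope down, most steeply at ZBTB7A with ab4729, from 58.4% to 2.59%.

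The Diagenode antibody at 1/50 gave more coverage than at 1/100 at all 5 genes, with and without TSA, from 1 library each and so with no test. Untreated, ZBTB7A was covered over 50.3% at 1/50 and 22% at 1/100, LIN28B over 33.7% and 13.2%, and MYB over 20.9% and 9.64%. IGF2BP1 and IGF2BP3 were closer, at 31.7% against 24% and 33.7% against 32%. With TSA, MYB and LIN28B had no peak at 1/100 and 13.3% and 5.71% at 1/50. The whole list covered 31.9 Mb at 1/50 and 12 Mb at 1/100 untreated.

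Extraction and cycle number made no difference that passed. With 8 pairs the smallest p of the exact sign-flip test is 0.00781. After adjustment over 16606 windows it can pass only if many windows reach it together, so the adjusted test could hardly call a single gene. For column against SDS extraction over 8 H3K27ac pairs, the exact sign-flip test called 0% of 16606 windows after adjustment and 0.693% at an unadjusted p under 0.05, and none of the 6 genes at either level. The mean differences ranged from -1 ± 7.24 points at IGF2BP1 to 1.91 ± 6.2 at IGF2BP3 (SD, 8 pairs). For 13 against 11 cycles the test called 0% after adjustment and 1.61% unadjusted, again with none of the 6. MYB had the largest difference, 4.34 ± 7.97 points (SD, 8 pairs), higher at 13 cycles in 6 pairs, lower in 1 and equal in 1, with an unadjusted p of 0.141 by the exact sign-flip test. LIN28B was lower at 13 cycles in 5 of 8 pairs, by a mean of -2.56 ± 5.41 points (SD, 8 pairs). At each of the 5 acetylated genes the SD over the 8 pairs exceeded the mean difference, in both comparisons.

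Within each cycle number, the mean difference between column and SDS extraction was above 0 at all 5 acetylated genes at 11 cycles, from 2.34 points at LIN28B to 4.39 at MYB. At 13 cycles it was -6.08 at IGF2BP1, -2.78 at ZBTB7A, -1.56 at MYB, -0.944 at LIN28B and 0.0637 at IGF2BP3. The change between cycle numbers could not reach 0.05 by an exact two-sided sign-flip test over 4 antibodies. At MYB and IGF2BP1 only 2 of the 16 sign assignments were as extreme, the fewest possible, and at the other 3 genes the unadjusted p was 0.25 to 0.375. List length moved alike. At 11 cycles the column list was longer than the SDS list for 3 of 4 H3K27ac antibodies, such as 7191 against 3957 peaks for Active Motif. At 13 cycles it was shorter for 3 of 4, such as 3761 against 6956 for Diagenode. The part of list length was not tested.

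MACS2 lists were given for the 6 untreated 15-cycle libraries. In the ab4729 and Diagenode 1/50 libraries MACS2 found all 5 acetylated genes, covering 34.8% and 32.9% of the ZBTB7A window and 35.9% and 33.8% of that of IGF2BP3. In the ab177178 library it found MYB, ZBTB7A and IGF2BP1 but no peak at LIN28B or IGF2BP3, where SEACR had 5.74% and 16.1%. In the Diagenode 1/100 library it found all but MYB. In the Active Motif library it found IGF2BP3 alone, over 2.72%. No H3K27me3 peak was found at any of the 5.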

How the data were processed

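Peak lists from 30 CUT&Tag libraries of K562 cells were analysed, each the only library of its condition, so p-values measure only the spread between libraries. The submitters' processing notes name the hg19 build and the tools SEACR, MACS2, bedtools 2.25.0, SAMtools 1.3.1, Bowtie2 2.2.9, Trim Galore 0.6.6, Picard 2.6.0 and bcl2fastq, without order. Peaks were called per library. The lists at 11 and 13 cycles were made after downsampling, per the labels. The deposited SEACR lists give total signal and maximum signal per peak as written by the authors' caller; total signal ranked peaks within a list. In the deposited MACS2 lists the −log10 q-value ranked peaks, and their fold enrichment ratio and score, also the authors' values, were not used.

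Only autosomal and X peaks entered, and 1 bp of overlap sufficed. The main measure was the percent of a window of 10 kb on each side of the start covered by SEACR peaks. The mark test enumerated all 4845 assignments of 4 among 20 libraries, so its smallest p is 0.000206; paired tests flipped signs. Benjamini-Hochberg adjustment ran over all 20 kb tiling windows with a peak in the lists compared, plus the named windows. The code was tested on simulated data. Alternatives were windows of 5 and 25 kb, presence of a peak, the strongest 50% of each list, equal list size, other sets of libraries, MACS2 lists and stricter overlap.

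The members and gene lists were chosen with earlier results of these data known. Named were all 6 genes, the interval upstream of MYB, up to 4 pathway genes per direction by size of difference, each gene's strongest peak and its nearest gene by Spearman correlation. Position blocks around the starts, the check of H3K27me3 lists at acetylated windows, the order of the genes, whole-list lengths and column against SDS within each cycle number were added after the data were seen. Pathway windows use hg19 starts recalled from general knowledge and checked against neighbouring genes of the RefSeq table, whose assembly differs, so those coordinates are not printed. Some marker genes are not reported here. Promoters come from RefSeq GRCh38.p14, where 5 of the 6 genes matched. Versions were scipy 1.17.1, pandas 2.3.3, numpy 2.4.6, matplotlib 3.10.9 and Python 3.11.15.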

Additional observations from a re-analysis of the deposited data

Results flagged for a closer look

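In 27 groups of 4 or 5 lists, 3 had a list that stood far from the rest. In each of the 3 all other lists were at 0, where any single list with a peak is flagged. The usual chance rate of about 1 in 20 therefore does not apply to them. MYB coverage with the Active Motif antibody was 9.56% in the column list at 11 cycles and 0% in its 3 other downsampled lists; that list was also the longest of the 4, with 7191 peaks. LIN28B coverage in H3K27me3 was 1.75% and IGF2BP3 coverage 2.38% in the column library at 11 cycles, and 0% in the other 4 H3K27me3 libraries. This is the library with H3K27me3 peaks in 32.3% of the windows acetylated in most lists.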

How the results depend on the processing

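Of 96 tested values of the mark difference under other settings, 85 kept their direction and their side of the threshold. With presence of a peak, the LIN28B difference was 62.5% of lists. In the strongest 50% of each list it was 3.4 points for LIN28B and 4.55 for IGF2BP1. At equal list size it was -2.45 for BCL11A, 4.12 for LIN28B and 5.25 for IGF2BP1, and without ab4729 it was 6.64 for IGF2BP1; these 7 values no longer passed, and fewer peaks or lists entered each of those fits except the first. Leaving out each H3K27me3 library in turn gave -21.4 to -18.4 for BCL11A, 7.29 to 7.87 for LIN28B, 17.6 to 18.4 for IGF2BP3 and 7.45 each time for IGF2BP1. The MACS2 lists, which have no test, gave -45.2 for BCL11A and 15 for ZBTB7A, and their 5 other values moved by less than the SD over libraries. They come only from 15-cycle libraries and the main values from downsampled ones, so libraries and caller both differ. In the untreated 15-cycle libraries SEACR covered 39.4% of the BCL11A window in H3K27me3. At ZBTB7A it covered a mean of 30.6% in H3K27ac, above the MACS2 value. Counting only peaks over the start itself, H3K27ac was found in 6 lists at MYB, 7 at ZBTB7A, 14 at LIN28B, 9 at IGF2BP1 and 8 at IGF2BP3, and H3K27me3 in 1 list at BCL11A and 0 at LIN28B and IGF2BP3. Over all windows, 1586 were called higher in H3K27ac and 20138 higher in H3K27me3, against 748 and 12249 in the strongest 50%, 805 and 1991 at equal list size and 1407 and 12363 at 25 kb. All 62 TSA values kept their direction or were 0.

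No extraction or cycle difference passed under any setting, which the small number of pairs made hard to reach after adjustment. Of 140 such values, 17 changed sign. For extraction these were ZBTB7A in the strongest 50% (-1.43), without Active Motif (-0.236) and without ab177178 (-1.15); LIN28B in the strongest 50% (-0.554), at equal list size (-0.104) and without ab177178 (-0.287); and IGF2BP1 by presence (12.5% of pairs), without Diagenode (0.197) and without ab177178 (0.0117). For cycles they were ZBTB7A by presence (12.5% of pairs), without Active Motif (0.574) and without ab4729 (2.2); IGF2BP3 at 25 kb (0.326), without Active Motif (3.18), without Diagenode (0.329) and without ab4729 (0.0542); and the interval upstream of MYB without ab177178 (-0.21). The cause was not tested. No fit with a replicate block was possible, because every condition has a single library; the pairs tested are matched conditions. Read depth is not given, so an absent peak is not evidence that the mark is absent.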
